A study of Bos taurus with 6 samples.

Results

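The genes described here encode the proteins of the cytosolic ribosome, measured in mammary epithelial cells of cattle (Bos taurus), which form the milk-producing lining of the udder. They were taken from the deposited table by gene name. The rule kept rows whose whole symbol is RPL, RPLP or RPS and a number, optionally followed by A, X or L and a further digit. RPSA was added, and the RPS6K kinases were left out. The rule found 51 of the 24616 rows, carrying 50 symbols, because RPS6 stood in 2 rows. By symbol, 22 rows were counted to the small subunit, 26 to the large subunit and 3 to the stalk of the large subunit. The 26 include RPL7L1, RPL26L1, RPL3L and RPL10L, which are relatives of ribosomal proteins.

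The study compared cells given acetate and BHBA together with control cells, in 3 RNA-seq libraries each. Acetate (NaAc, its sodium salt, in the sample titles) and BHBA (beta-hydroxybutyrate, a ketone body) are substrates from which the ruminant mammary gland makes milk fat, and the treated cells stand in the series for a high capacity to make milk fat. The labels name no dose, duration or control with matched sodium for the groups used here, so sodium and the substrates cannot be told apart. They also do not say whether the cells were a line or came fresh from an animal, or whether the libraries came from separate cultures, so p-values reflect the spread among these 6 libraries and that spread may be technical.

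The ribosome is built from ribosomal RNA and a large set of small basic proteins, most of them present once in each particle. Their mRNAs carry a pyrimidine tract at the 5′ end, the TOP motif, through which mTOR and LARP1 control their translation, so that protein output can move without a change in mRNA. The mRNAs are among the most abundant of a growing epithelial cell. In the mammary gland, mTOR signalling to ribosomal protein S6 is studied as a control of milk protein synthesis.

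Values were FPKM (fragments scaled by gene length and by all fragments mapped), which allows levels of different genes to be set side by side but no read counts were available, and depth is therefore unknown. The gene models behind the lengths are not settled, since the identifiers resemble an older annotation than the named build, and every level or rank between genes depends on them. Summed FPKM lay between 787186 and 936152 in treated libraries and between 816087 and 1134026 in control libraries, with control replicate 1 at the top. The 8 epithelial markers were all above the minimum of 1 FPKM on average. Their sum ran from 12507 to 14965 FPKM in treated libraries and from 15549 to 20353 in control libraries. Of the markers of other cell types, the 7 fibroblast markers summed to between 33.21 and 43.02 FPKM in treated libraries and between 21.52 and 41.12 in control libraries. The 4 endothelial markers summed to at most 6.41 and 5.18 FPKM, the 5 leukocyte markers to at most 8.38 and 5.62, and the 3 adipocyte markers to at most 0.23 and 0.41 FPKM in treated and control libraries. The fibroblast, endothelial and leukocyte sums were lowest in control replicate 1 and the epithelial sum was highest there. As a share of summed FPKM, however, the epithelial markers took 1.57% to 1.64% in treated libraries, and 1.79%, 1.94% and 1.91% in control replicates 1, 2 and 3, so that control replicate 1 was then the lowest control. PECAM1, CDH5, PTPRC and CD3E reached at most 0.06 FPKM in any library, and CD79A was listed at 0 in all 6. Which part these markers had in the results below was not tested. In bulk RNA, fewer cells of a type and less RNA per cell cannot be told apart.

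Of the 51 ribosomal protein rows, 43 averaged 1 FPKM or more across the libraries and were tested. Another 5 were listed at 0 in every library (RPL17, RPL27, RPL31, RPS15A and RPS29), and 3 lay below the minimum. These were RPL39, at 0.87 FPKM in treated replicate 1 and 0 in the other libraries, RPL3L, the muscle relative of RPL3, at most 0.13 FPKM, and RPL10L, the testis relative of RPL10, at most 0.1 FPKM. Since every cell needs a working set of ribosomal proteins, a 0 in this table need not mean that the transcript was missing.

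The tested rows were high in every library. Their means over the 6 libraries had a median of 1920 FPKM, 34 of the 43 lay above 1000 FPKM, 7 between 100 and 1000, and 2 below 100. Together the member rows took 9.23% ± 0.908 of all FPKM in treated libraries and 9.56% ± 1.74 in control libraries (SD, n = 3 each). By library the share was 8.26%, 10.1% and 9.36% in treated replicates 1, 2 and 3, and 11.6%, 8.77% and 8.36% in control replicates 1, 2 and 3. The 2 groups overlapped, and control replicate 1 held the largest share of all.

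RPLP1, an acidic protein of the stalk that draws elongation factors to the ribosome, was the most abundant member. It stood at 4767, 5908 and 5749 FPKM in treated replicates 1, 2 and 3, and at 7874, 5416 and 5132 FPKM in control replicates 1, 2 and 3. The groups overlapped, with control replicate 1 above all other libraries and treated replicate 1 below them. RPS2, a protein of the small subunit near the mRNA entry channel, followed at 2875, 4447 and 4273 FPKM in treated and 5796, 4164 and 3766 FPKM in control libraries. RPL37, a zinc-binding protein of the large subunit, came next at 3295, 4699 and 4212 FPKM in treated and 5995, 3513 and 3181 FPKM in control libraries. In all 3 genes the highest library was control replicate 1, and treated replicates 2 and 3 lay above control replicates 2 and 3. RPS15, whose tail reaches toward the decoding site, had 2525, 4171 and 3567 FPKM in treated and 6247, 3006 and 2731 FPKM in control libraries. RPS12 of the small subunit had 2528, 3594 and 3397 FPKM in treated and 5690, 2982 and 2631 FPKM in control libraries.

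At the low end were RPS26 with a mean of 466 FPKM, RPS4X with 146, RPL7L1 with 123, RPL26L1 with 15.8 and RPS13 with 4.20 FPKM over the 6 libraries. RPL26L1 is a close relative of RPL26, and RPL7L1 is a relative of RPL7 known as a factor in large subunit assembly. RPS4X is encoded on the X chromosome in mammals. RPS13 is a core protein of the small subunit, so its level beside its subunit partners (median 2029 FPKM over the 20 tested small subunit rows) was low.

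**Figure D1:**
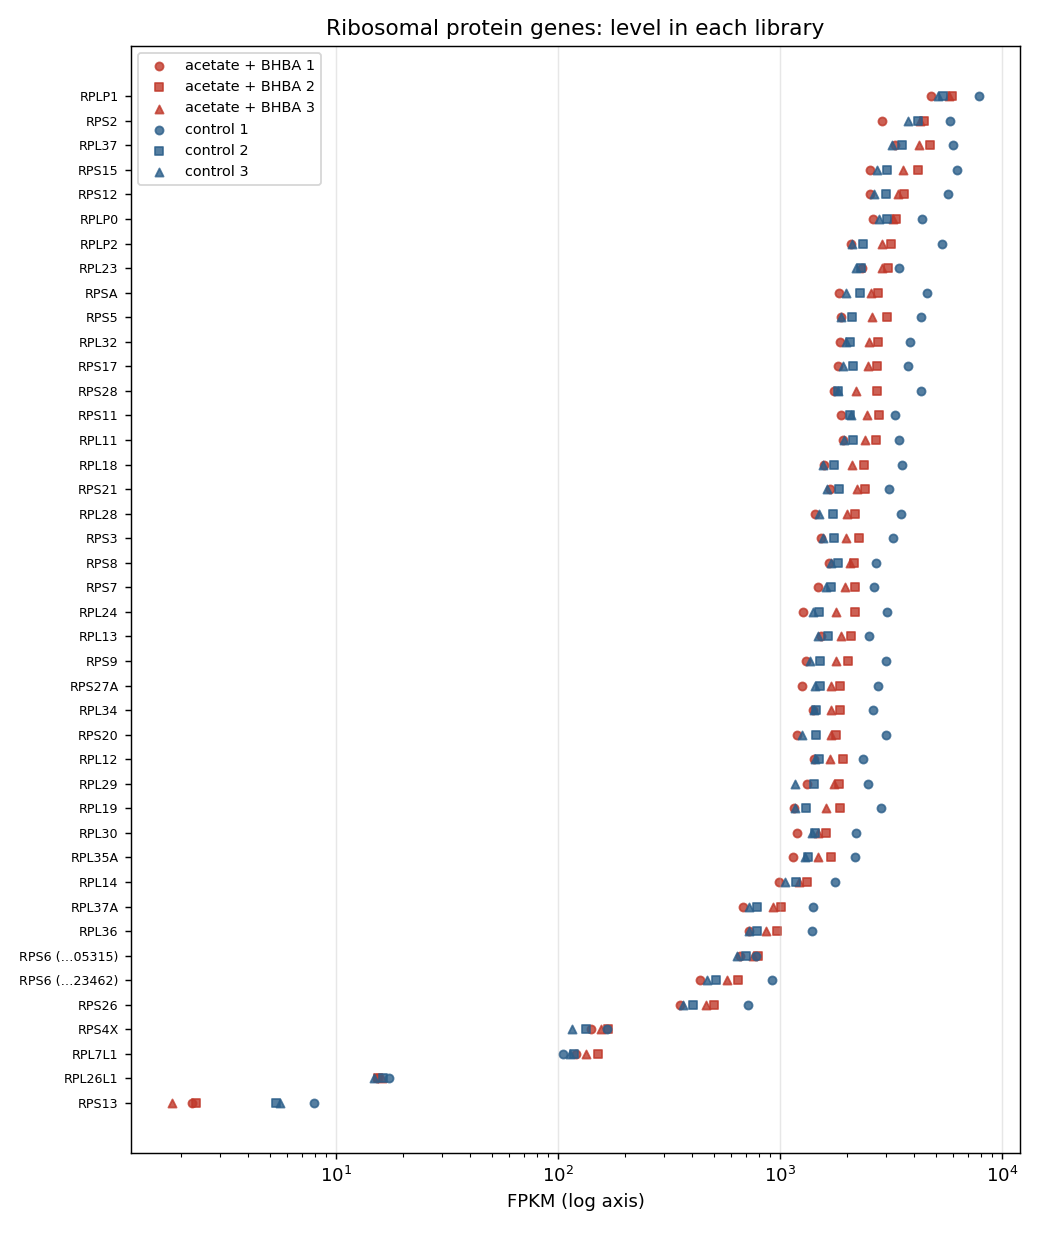
FPKM (log axis) of 42 of the 43 tested ribosomal protein rows in each library, ordered by mean level, with 1 row not shown. Red symbols are the 3 acetate and BHBA libraries and blue symbols the 3 controls. In nearly every row the rightmost symbol is control replicate 1, and RPS13, at the bottom, has its 3 red symbols left of its 3 blue ones.

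None of the 43 tested members passed the test between cells with acetate and BHBA and control cells (limma, Benjamini-Hochberg adjusted p under 0.05 over 11615 genes, n = 3 per group). Over all genes tested the share that passed was 0.474%. At an unadjusted p under 0.05 there was 1 member, RPS13, while 11.0% of all genes tested lay below that value. The log2 fold changes of the 42 other members ran from -0.24 to 0.27, with adjusted p-values between 0.538 and 0.994. Of the 43, 38 were below 0 (88.4%, against 38.1% of all genes tested), and the median was -0.12, against 0.08 over all genes tested. Fold changes here are differences of log2(FPKM + 0.5).

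That direction rested on control replicate 1. Without it, 41 of 43 members had a log2 fold change above 0 (95.3%, against 49.6% of 11634 genes), and the median was 0.20, against 0.00 over all genes. A total of 36 members turned from below to above 0. Only RPS13 then passed (1 of 43, against 1.76% of all genes), and the other 42 ran from -0.06 to 0.33 with adjusted p-values between 0.255 and 0.994. Without treated replicate 1, the library with the lowest level in 32 members, 31 of 43 were above 0 and the median was 0.05. Quantile normalization also turned the median, to 0.01 with 24 of 43 above 0. With the summed FPKM as a covariate it was 0.04 with 30 of 43 above 0. No direction can therefore be given for these genes as a group.

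**Figure D2:**
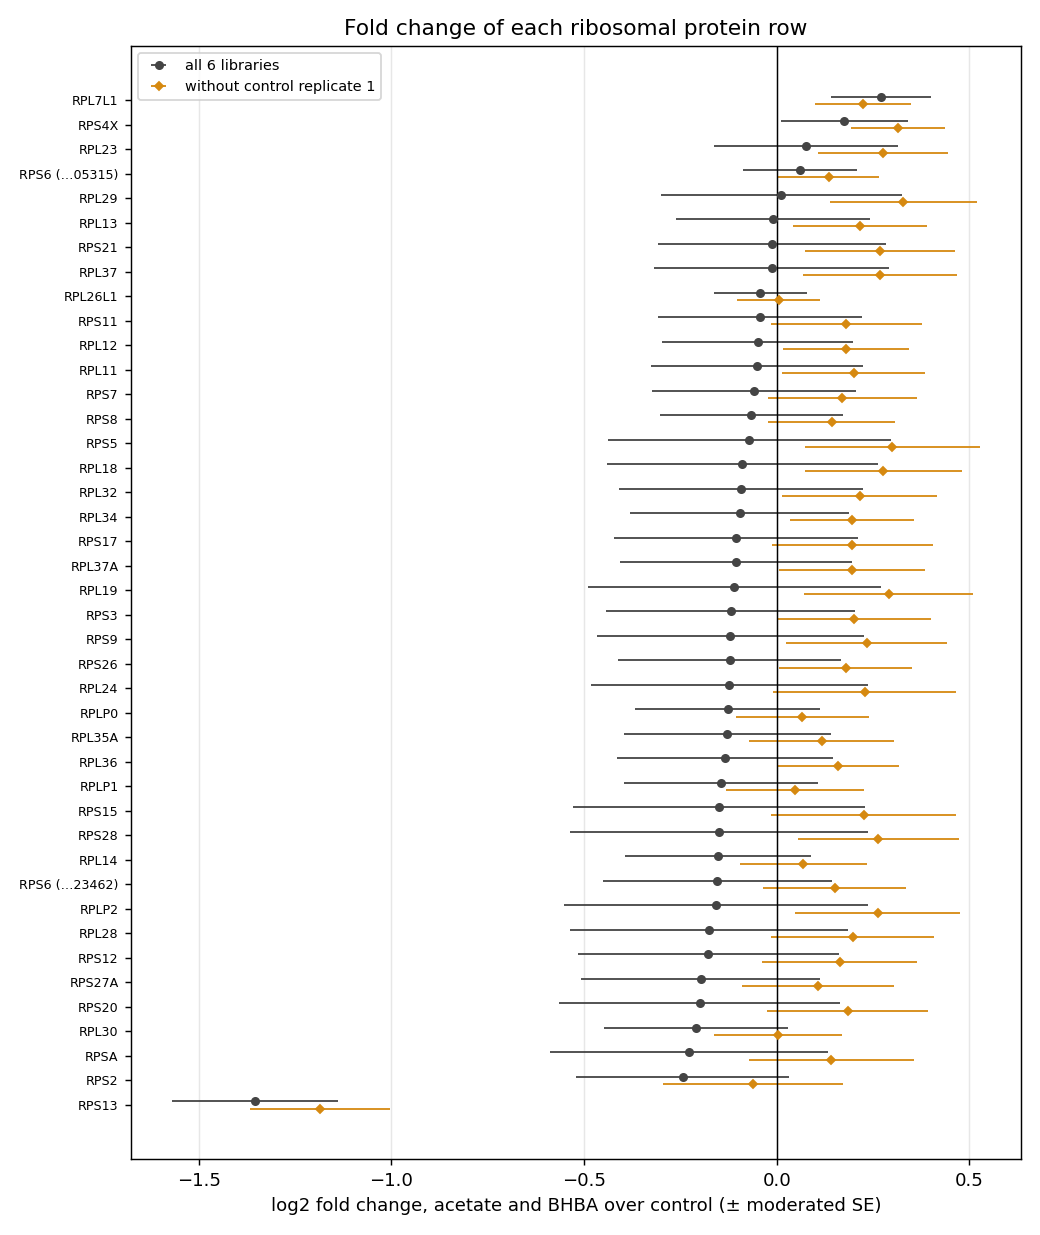
Log2 fold change of acetate and BHBA over control for 42 of the 43 tested rows (1 row not shown), with the moderated standard error, from all 6 libraries (grey circles) and without control replicate 1 (orange diamonds). The medians over all 43 rows are -0.12 for the grey circles and 0.20 for the orange diamonds, and RPS13 is the row far to the left in both fits.

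RPS13 (ENSBTAG00000003937), which binds the central domain of the small subunit RNA, was the member with the largest difference between groups. Its level was 2.24, 2.32 and 1.81 FPKM in treated replicates 1, 2 and 3, and 7.95, 5.33 and 5.55 FPKM in control replicates 1, 2 and 3. Every treated library lay below every control library. The group means were 2.12 ± 0.274 FPKM in treated and 6.28 ± 1.45 FPKM in control cells (SD, n = 3 each), and the log2 fold change was -1.35 ± 0.22 (SE; limma adjusted p = 0.0686), which missed the threshold. The value was below 0 in all 18 alternatives that could be computed, from -1.50 to -1.18, and passed in 2 of them. These were the fit without control replicate 1 (limma adjusted p = 0.0404) and the fit with the summed FPKM as a covariate (adjusted p = 0.00282). The adjusted p ranged up to 0.613. The covariate fit called 2089 of 11615 genes. With a minimum mean of 5 FPKM the row was no longer tested. It averaged 4.20 FPKM, against a median of 2029 FPKM over the 20 tested small subunit rows. Whether this row captures the main RPS13 transcript was not tested, so the level and change of RPS13 as a gene are uncertain.

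RPL7L1 (ENSBTAG00000018478) was the other member whose groups did not overlap, in the opposite direction. It stood at 120, 152 and 134 FPKM in treated replicates 1, 2 and 3, and at 104, 118 and 112 FPKM in control replicates 1, 2 and 3. Its log2 fold change was 0.27 ± 0.13 (limma adjusted p = 0.538), and it was above 0 in all 19 alternatives, from 0.19 to 0.36, with none past the threshold (adjusted p from 0.104 to 0.999). Control replicate 1 was here the lowest library, unlike in any other tested member. Groups without overlap were thus 2 of 43 members (4.65%), against 19.7% of all genes tested.

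RPS4X had 140, 167 and 156 FPKM in treated and 166, 133 and 115 FPKM in control libraries. The groups overlapped through control replicate 1 alone, and without it the log2 fold change was 0.32 ± 0.12 (adjusted p = 0.255), in place of 0.17 ± 0.16 (adjusted p = 0.847). RPL23, a large subunit protein at the face that meets the small subunit, had 2331, 3046 and 2857 FPKM in treated and 3417, 2312 and 2198 FPKM in control libraries. Its log2 fold change was 0.07 ± 0.24 (adjusted p = 0.955), or 0.27 ± 0.17 (adjusted p = 0.464) without control replicate 1. Both passed in 1 of 19 alternatives, the fit with the summed FPKM as a covariate (limma adjusted p = 0.0348 for RPS4X and 0.0242 for RPL23). Their adjusted p-values ranged up to 0.9994 and 0.9998. The covariate fit called 3 of 43 members, against 2089 of 11615 genes, and the summed FPKM includes the members. Without control replicate 1, RPL7L1, RPS4X and RPL23 were the 3 members whose treated libraries all lay above the remaining controls, 6.98% of 43 against 20.3% of all genes.

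The ribosomal proteins moved together from library to library. In 38 of the 43 rows (88.4%) the highest level was in control replicate 1, followed by treated replicate 2 and then treated replicate 3. Control replicate 1 was the highest library in 40 rows (93.0%, against 25.7% of all genes tested). The lowest library was treated replicate 1 in 32 rows and control replicate 3 in 9. Relative to each gene's own mean on the log2 scale, the median member stood at -0.37, 0.19 and 0.03 in treated replicates 1, 2 and 3, and at 0.66, -0.17 and -0.30 in control replicates 1, 2 and 3. Over all genes tested the medians were 0.07, 0.03 and 0.01 in treated replicates 1, 2 and 3, and -0.17, 0.02 and 0.04 in control replicates 1, 2 and 3. The order of the libraries in the ribosomal proteins was thus a different one from that of the typical gene, in which control replicate 1 stood lowest. It was not particular to them. The 8 epithelial markers had medians of -0.27, 0.09 and 0.02 in treated replicates 1, 2 and 3. In control replicates 1, 2 and 3 their medians were 0.37, -0.06 and -0.28.

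**Figure D3:**
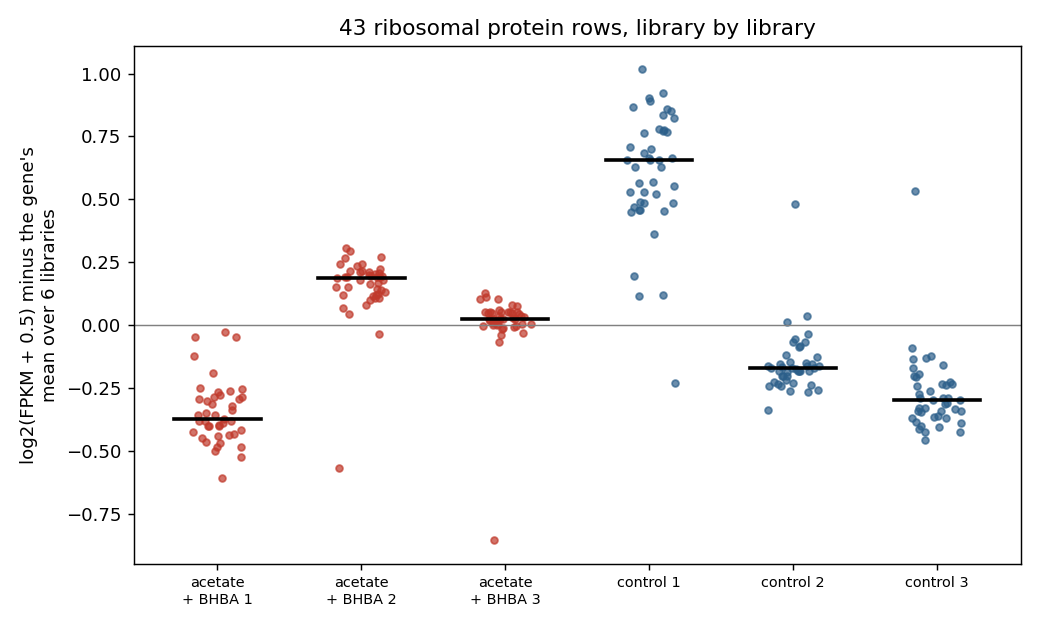
Each point is 1 of 43 ribosomal protein rows, drawn as log2(FPKM + 0.5) minus that row's mean over the 6 libraries, and black bars are medians. The medians are -0.37, 0.19 and 0.03 in the acetate and BHBA libraries and 0.66, -0.17 and -0.30 in the controls, so replicates of 1 group differ more than the groups do. The lone low points in treated replicates 2 and 3, and the lone high ones in control replicates 2 and 3, are RPS13.

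The size of this shared shift differed between members. The level in control replicate 1 was 1.85 times the mean of control replicates 2 and 3 in the median member. The ratio was at least 1.5 in 35 of 43 and at least 2 in 13. Over all genes tested with values above 0, its median was 0.866. Values were not rescaled here, and the summed FPKM of control replicate 1 was 1.36 times the mean of the other controls. Among the large ratios were those of RPLP2 (2.39), RPS28 (2.36) and RPL19 (2.30). The smallest were those of RPL7L1 (0.907), RPL26L1 (1.11), the RPS6 row ENSBTAG00000005315 (1.16) and RPS4X (1.34). Among treated libraries, the level in replicate 2 was 1.47 times that in replicate 1 in the median member, from 1.01 (RPL26L1) to 1.72 (RPL24). Over all genes tested with values above 0, the median of this ratio was 0.999. Members with a large ratio among controls also had a large one among treated libraries. Across the 43 rows the log2 ratios had a Pearson correlation of 0.777 and a Spearman correlation of 0.833, given as a description of genes that share their libraries. The same correlation over 11516 tested genes with values above 0 was 0.737 (Spearman 0.821), so this relation was not particular to ribosomal proteins.

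**Figure D4:**
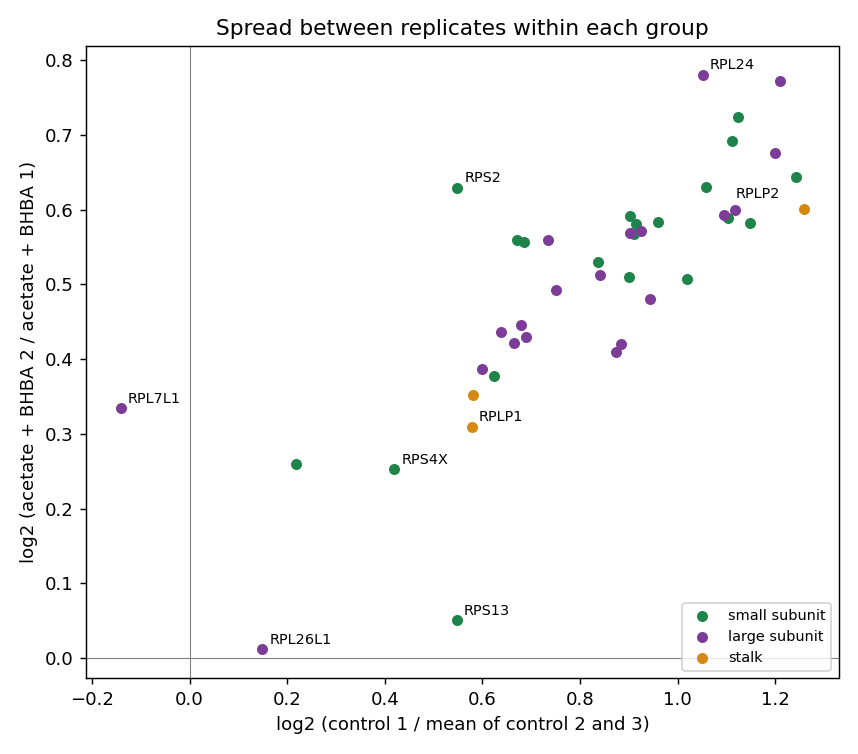
Each point is a tested ribosomal protein row. The horizontal axis gives the log2 ratio of control replicate 1 to the mean of control replicates 2 and 3, and the vertical axis the log2 ratio of acetate and BHBA replicate 2 to replicate 1; colours mark the small subunit, the large subunit and the stalk. Rows spread along a rising diagonal (Pearson 0.777), and RPL7L1 is the lone row left of 0.

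The medians of the subunits lay close together. The 20 tested small subunit rows had a median log2 fold change of -0.12, with 18 below 0. The 20 tested large subunit rows, RPL7L1 and RPL26L1 among them, had a median of -0.09, with 17 below 0. Without control replicate 1 these medians were 0.18 and 0.21. RPSA, which sits on the small subunit where the mRNA leaves, had 1833, 2759 and 2551 FPKM in treated and 4584, 2288 and 1977 FPKM in control libraries. RPS3, which lines the mRNA entry channel, had 1516, 2270 and 1976 FPKM in treated and 3211, 1741 and 1561 FPKM in control libraries. In both, treated replicates 2 and 3 lay between control replicate 1 and the other 2 controls. RPS27A, which is made as a fusion with ubiquitin, had a log2 fold change of -0.20 ± 0.31, or 0.11 ± 0.20 without control replicate 1. RPS20 stood at -0.20 ± 0.36, or 0.18 ± 0.21 without control replicate 1. For RPS21 the values were -0.01 ± 0.29 and 0.27 ± 0.20.

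RPS6, the target of the S6 kinases that act downstream of mTOR, was split over 2 rows. The row ENSBTAG00000005315 had 660, 790 and 756 FPKM in treated and 778, 700 and 637 FPKM in control libraries, with a log2 fold change of 0.06 ± 0.15. The row ENSBTAG00000023462 had 433, 642 and 575 FPKM in treated and 921, 514 and 465 FPKM in control libraries, with a log2 fold change of -0.15 ± 0.30. Neither passed. Control replicate 1 was 1.16 times the other controls in the first row and 1.88 times in the second. Reads can be shared between near-identical sequences, so the level of RPS6 as a gene is uncertain.

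Among large subunit members, RPL11, which with RPL5 can bind and block MDM2 when ribosome assembly fails, had 1923, 2705 and 2416 FPKM in treated and 3411, 2115 and 1937 FPKM in control libraries (log2 fold change -0.05 ± 0.27). RPL30 stood at -0.21 ± 0.24, or at 0.00 ± 0.17 once control replicate 1 was left out. RPL28 stood at -0.18 ± 0.36 and 0.20 ± 0.21, RPL13 at -0.01 ± 0.25 and 0.22 ± 0.17, and RPL29 at 0.01 ± 0.31 and 0.33 ± 0.19 with and without that library. The stalk proteins were all below 0 with all libraries and all above 0 without control replicate 1. RPLP0, the base of the stalk, had 2603, 3323 and 3230 FPKM in treated and 4341, 3027 and 2773 FPKM in control libraries. RPLP2, the partner of RPLP1, had 2083, 3160 and 2861 FPKM in treated and 5323, 2353 and 2093 FPKM in control libraries, so that within the stalk control replicate 1 was 1.497 times the other controls for RPLP0, 1.493 times for RPLP1 and 2.39 times for RPLP2. RPL26L1 varied little, with 15.3, 15.4 and 16.0 FPKM in treated and 17.2, 16.2 and 14.8 FPKM in control libraries.

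Other rows of the table were described as ribosomal proteins without carrying a symbol, and so lay outside the name rule. There were 27 such rows for 21 proteins, 24 of them tested, found after the values had been seen. Of 79 proteins usually counted in the mammalian cytosolic ribosome, 48 had a row by symbol and 14 by description only, and 17 were not analysed here, among them RPS14, RPS19, RPL3, RPL10A, RPL26 and RPL38. Of the 5 symbols listed at 0 in every library, 3 had another row for the same protein at a high level. RPL31, a protein near the exit of the peptide tunnel, had an unnamed row (ENSBTAG00000019701) at 2742, 4092 and 3681 FPKM in treated and 5676, 3064 and 2787 FPKM in control libraries. RPS15A had one (ENSBTAG00000020733) at 2455, 3010 and 2911 FPKM in treated and 3562, 2698 and 2409 FPKM in control libraries. RPL17 had 2 unnamed rows, with treated means of 1701 and 593 FPKM and control means of 1809 and 518 FPKM. Those zeros therefore stood beside other rows for the same protein that lay far above the minimum of 1 FPKM. RPL27 and RPS29 had no such row, and 2 unnamed rows for RPL39 were at 0 as well.

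**Figure D5:**
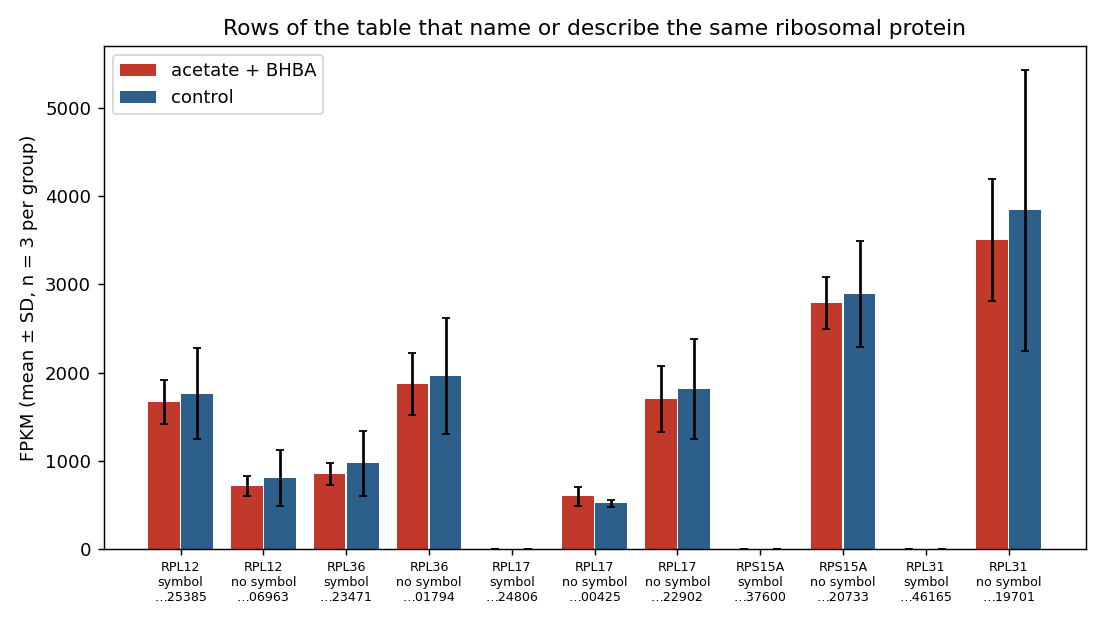
Mean FPKM with its SD (n = 3 per group; acetate and BHBA in red, control in blue) for rows that carry the symbol of a ribosomal protein and rows that describe the same protein without a symbol; the last 5 digits of each Ensembl identifier are given. The rows with the symbols RPL17, RPS15A and RPL31 are at 0, while unnamed rows for these proteins reach group means of 518 to 3842 FPKM.

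The unnamed rows followed the same library pattern, with control replicate 1 highest in 22 of 24 and the order of control replicate 1, treated replicate 2 and treated replicate 3 at the top in 20. Their median log2 fold change was -0.07 (20 of 24 below 0), or 0.18 (22 of 24 above 0) without control replicate 1, and 0 passed in either fit. RPL5 stood at 0.04 ± 0.19, RPL10 at -0.15 ± 0.31, RPL13A, also known for a role in silencing inflammatory mRNAs in human cells, at -0.02 ± 0.29 and RPS25 (ENSBTAG00000027772) at -0.01 ± 0.23 on the log2 scale. An unnamed RPL23A row (ENSBTAG00000032022) broke the pattern, with 566, 2041 and 2570 FPKM in treated and 2153, 2102 and 1332 FPKM in control libraries. The RPL17 row ENSBTAG00000000425 broke it too, with 568, 501 and 709 FPKM in treated and 478, 517 and 558 FPKM in control libraries. Control replicate 1 was its lowest library. Its log2 fold change was 0.18 ± 0.17, against -0.07 ± 0.28 for the other unnamed RPL17 row. Among ribosomal protein genes with symbols of another form, FAU and RACK1 were also highest in control replicate 1. FAU had a log2 fold change of -0.11 ± 0.28, and RACK1, a signalling scaffold on the small subunit, of 0.10 ± 0.24.

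Mitochondrial ribosomal proteins, which serve a separate ribosome, also stood highest in FPKM in control replicate 1, followed by treated replicates 2 and 3. As a share of summed FPKM, however, treated replicate 2 held the most. The shares were 0.380%, 0.424% and 0.393% in treated replicates 1, 2 and 3, and 0.422%, 0.385% and 0.369% in control replicates 1, 2 and 3. Their 71 tested rows had medians of -0.19, 0.13 and 0.02 in treated replicates 1, 2 and 3, and of 0.34, -0.11 and -0.19 in control replicates 1, 2 and 3, relative to each gene's mean. Their median log2 fold change was -0.01 (37 of 71 below 0), or 0.15 (58 of 71 above 0) without control replicate 1, with 0 past the threshold in both fits. MRPL33 had 2 rows with identical values, at 84.33, 122.9 and 93.34 FPKM in treated and 36.67, 60.51 and 38.04 FPKM in control libraries. The 1.16 ± 0.24 by which it differed on the log2 scale missed the threshold (limma adjusted p = 0.123), and MRPL43 stood at 0.31 ± 0.13. Whether the shift of control replicate 1 was larger in cytosolic than in mitochondrial ribosomal proteins was not tested.

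The other mRNAs with a TOP motif went both ways in control replicate 1. EIF3F had 378 FPKM there against a mean of 268 over all libraries, and EIF4B had 140 against a mean of 212, both named after their values were seen. Of the 17 genes listed, 12 were found and 11 tested, and relative to each gene's mean their medians were -0.06, 0.14 and 0.05 in treated replicates 1, 2 and 3, and -0.02, -0.05 and -0.09 in control replicates 1, 2 and 3. EEF2, the factor that moves the ribosome along the mRNA, had 1125, 1132 and 1125 FPKM in treated and 890, 1039 and 981 FPKM in control libraries (0.22 ± 0.14 on the log2 scale, adjusted p = 0.691). All treated libraries lay above all controls, and control replicate 1 was the lowest. HNRNPA1 had 341, 339 and 353 FPKM in treated and 410, 407 and 415 FPKM in control libraries (-0.25 ± 0.11, adjusted p = 0.467), so that all treated libraries lay below all controls. Of the 11, EIF3H was the other gene whose groups did not overlap, with treated libraries higher. Over all genes tested 19.7% had groups without overlap. The median over the 11 was 0.07, or 0.13 without control replicate 1, and 0 passed in either fit.

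The machinery that makes and watches over ribosomes did not pass either. Of 44 tested ribosome assembly factors, 25 were above 0 and 19 below, with a median log2 fold change of 0.05 (0.02 without control replicate 1) and 0 past the threshold. NOC4L stood at 0.59 ± 0.26, or 0.35 without control replicate 1, and RBM28 at 0.33 ± 0.16. Of the 13 genes of RNA polymerase I and its factors, which transcribe ribosomal RNA, 8 were above and 5 below 0 (median 0.07, or 0.00 without control replicate 1), with TTF1, which ends ribosomal RNA transcription, at -0.29 ± 0.14 and POLR1E at -0.36 ± 0.19. Of 7 chaperones and importers of ribosomal proteins, 4 were above and 3 below 0 (median 0.15, or -0.07 without control replicate 1), with PDCD2, which escorts RPS2, at -0.31 ± 0.19 and IPO7 at 0.49 ± 0.49 (-0.07 without control replicate 1). Of 12 regulators of ribosomal protein genes, 8 were above and 4 below 0 (median 0.08, or -0.03 without control replicate 1), with RPS6KB1, an S6 kinase, at 0.45 ± 0.23 (0.25 without control replicate 1). MYC, which drives ribosomal protein genes, had 72.7, 63.6 and 65.3 FPKM in treated and 38.2, 64.4 and 60.1 FPKM in control libraries, and control replicate 1 was the lowest library. Of 10 genes of ribosome rescue and quality control, 8 were above 0 (median 0.19, or -0.01 without control replicate 1), with ZNF598, a ubiquitin ligase that marks collided ribosomes, at 0.26 ± 0.11 and PELO, a rescue factor, at 0.19 ± 0.13. In none of these lists did a gene pass, with or without control replicate 1, against 0.474% and 1.76% of all genes.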

How the data were processed

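The authors' deposited table holds FPKM for 6 libraries, each value rounded to 2 decimals, and its name gives the unit. The build ARS-UCD1.2 comes from the submitters' processing notes. Aligner, counter, annotation and strandedness: not given in the sources used here. Per the labels' protocols, poly(A) RNA was selected and paired-end libraries were sequenced. FPKM holds no counts, so no count model or depth interval was used, and near-identical gene copies may share reads.

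Columns were assigned to samples by name and samples to groups by title. Rows averaging 1 FPKM or more were tested as log2(FPKM + 0.5) with limma 3.58.1 (R 4.3.3), trend, 2-sided, with 4 residual degrees of freedom. Benjamini-Hochberg adjustment ran over all rows tested, with a threshold of 0.05. The fit was also run on simulated data with noise drawn independently for each gene and library. Those data lacked the library shifts that genes share here, so they cannot show how the fit behaves under such shifts. Figures used Python 3.11.15 and matplotlib 3.10.9.

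The members, lists and paralog pairs were chosen with earlier results of these data known. Named genes were the 8 highest and 8 lowest fold changes, the 5 highest levels, rows at 0, a panel by role and up to 2 genes per companion list. RPS26, RPS28, RPL19, RPL24, RPL26L1, RPL3L, RPL10L, RPL23A, RPL39, MYC and the rows without a symbol for RPL17, RPL31 and RPS15A were also named after their values were seen. Some genes that the rule would name are not reported here. No pair of paralogs had both symbols at 1 FPKM or more, so their ratios were not computed.

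The labels name no pairing, and same-numbered treated and control libraries did not deviate together, so numbers were not taken as pairs. With 3 libraries per group, such deviations cannot decide whether libraries were paired. Alternatives were other pseudocounts, filters, scalings and variance estimates, a replicate block, the summed FPKM as a covariate and leaving out each library.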

Additional observations from a re-analysis of the deposited data

How the results depend on the processing

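The count of members past the threshold was 0 with other pseudocounts, filters, scalings and variance estimates. It was 3 with the summed FPKM as a covariate (RPL23, RPS4X and RPS13), a fit that called 2089 of 11615 genes. Leaving out each library gave 0 to 1 members, the 1 being RPS13 without control replicate 1, where 205 genes passed in all. The other fits with a library left out called 0 or 1 gene in all, so their 0 says nothing of the members. The median log2 fold change of the members was -0.12. It ran from -0.30 (without control replicate 3) to 0.20 (without control replicate 1) over fits with a library left out, and from -0.19 (trimmed-mean factors) to 0.04 (covariate) over the others. Trimmed-mean factors left 3 of 43 members above 0, rescaling to the same sum 15, rescaling to the same sum over other rows 14 and quantile normalization 24. The median over all genes was 0.15 after rescaling. Scaling to the members' own median, chosen after seeing the data, gave 15 above 0. Of the 24 named members, 17 changed sign without control replicate 1 and 9 without treated replicate 1, with neither value past the threshold. The cause was not tested.

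The log2 ratio of summed member FPKM was -0.16, -0.05 after rescaling to the same sum and -0.33 to 0.19 with a library left out (0.19 without control replicate 1). With the replicate block, members' fold changes kept their values, 0 of 11615 genes passed, members included, and the adjusted p of RPS13 was 0.613. Same-numbered libraries had correlations of -0.729, -0.367 and -0.376 in their deviations from the group means. The labels name no pairing, so the block carries no known pairing. Depth is unknown, and 3 libraries per group limit the precision.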
